A study of Mus musculus with 24 samples.

Results

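Described here are 10 genes for mesenchymal transcription factors, namely Snai1, Snai2, Zeb1, Zeb2, Twist1, Twist2, Tcf21, Prrx1, Runx1 and Tead1. They were listed by name, placed on the mouse build mm10, and each was read over its annotated body plus 50 kb on either side, called its window here. They are 10 of 21887 protein-coding genes placed, and their windows held 162 of the 77240 regions that resulted when overlapping or touching MEF2C peaks of 8 libraries were merged.

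SNAI and ZEB proteins are zinc finger repressors, and TWIST proteins and TCF21 are basic helix-loop-helix factors. SNAI and ZEB bind E-boxes in epithelial genes such as Cdh1 and hold them low while cells take on mesenchymal features. Fibroblasts are mesenchymal cells. MEF2C is a MADS-box factor of muscle and heart and, with GATA4 and TBX5, can push fibroblasts towards a cardiomyocyte-like state, in which the fibroblast programme falls.

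The cells were iMGT-Myh6-eGFP-MEF, a line of mouse embryonic fibroblasts in which doxycycline switches on Mef2c, Gata4 and Tbx5 and eGFP reports the cardiac gene Myh6. CUT&RUN, in which an antibody directs a nuclease to cut out the DNA around a protein, was done for MEF2C, for the linker histone H1.0 (encoded by H1f0) and for the heterochromatin mark H3K9me3. In the MEF2C groups, cells received siControl (n = 2), siJunb (n = 3, against the AP-1 factor gene Junb) or siH1f0 (n = 3), were given 1 µg/mL doxycycline the day after, and were collected at day 1 of induction. H1.0 and H3K9me3 were each mapped in 2 ground-state libraries, without reprogramming, and in 2 day 1 siControl libraries, which were transfected and induced. All MEF2C libraries came from cells with induced MEF2C, so none shows these genes without it. All groups used this line, the age and number of embryos were not given in the sources used here, and the ground-state library names mention siControl at day 0 although their treatment fields do not. The 8 IgG samples, RNA, and Junb and H1f0 levels were not analysed here, so the knockdowns were not checked and no gene's expression is known.

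List size set the scale of every value. MEF2C lists held 11731 to 49011 peaks over 13.4 to 89.8 Mb, H1.0 lists 32934 to 722322 peaks, and H3K9me3 lists 24219 to 69439 peaks. File names fall into 2 naming series. Those of the first (siControl replicate 1, siJunb replicate 1, siH1f0 replicate 3) covered 13.4 to 22.5 Mb for MEF2C, and those of the second covered 56.4 to 89.8 Mb. Whether a series marks a batch is not given in the sources used here, and within-series values stand beside each comparison.

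RefSeq promoter windows of GRCm38.p6, 300 bp each from 250 bases before a start to 50 after, matched 7 members with 11 starts. Snai2, Zeb1 and Tead1 had no entry. Shown are 7 of the 11: 3 of the 4 at Zeb2 and both at Runx1, where the MEF2C lists differed between starts of a gene, and those of the 2 least covered members, Twist1 and Tcf21. Each is the 250 bases before a start, 5′ to 3′ on the gene's strand, with motif matches in capitals. They are Zeb2 at its outermost start (chr2:45117443-45117692, minus strand), at a start 4.2 kb into the gene (chr2:45113280-45113529, minus) and at a start 7.2 kb into it (chr2:45110278-45110527, minus), Runx1 at its distal start (chr16:92826075-92826324, minus) and its proximal start 128.7 kb into the gene (chr16:92697330-92697579, minus), Twist1 (chr12:33957421-33957670, plus) and Tcf21 (chr10:22820144-22820393, minus).
Zeb2 outermost start: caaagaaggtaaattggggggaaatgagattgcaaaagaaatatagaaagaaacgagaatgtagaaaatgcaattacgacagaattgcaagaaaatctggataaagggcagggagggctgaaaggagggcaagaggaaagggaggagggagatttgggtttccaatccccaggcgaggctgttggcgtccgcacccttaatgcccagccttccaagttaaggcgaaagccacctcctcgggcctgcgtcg
Zeb2 start 4.2 kb into the gene: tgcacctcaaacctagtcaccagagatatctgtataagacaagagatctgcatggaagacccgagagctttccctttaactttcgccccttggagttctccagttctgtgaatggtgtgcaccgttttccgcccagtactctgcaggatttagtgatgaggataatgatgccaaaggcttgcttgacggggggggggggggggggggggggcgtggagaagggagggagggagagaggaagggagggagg
Zeb2 start 7.2 kb into the gene: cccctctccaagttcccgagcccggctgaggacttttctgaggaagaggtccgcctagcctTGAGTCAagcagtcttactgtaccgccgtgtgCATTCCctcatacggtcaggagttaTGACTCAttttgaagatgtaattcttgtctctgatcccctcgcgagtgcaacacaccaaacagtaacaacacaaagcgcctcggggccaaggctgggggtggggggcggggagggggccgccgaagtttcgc
Runx1 distal start: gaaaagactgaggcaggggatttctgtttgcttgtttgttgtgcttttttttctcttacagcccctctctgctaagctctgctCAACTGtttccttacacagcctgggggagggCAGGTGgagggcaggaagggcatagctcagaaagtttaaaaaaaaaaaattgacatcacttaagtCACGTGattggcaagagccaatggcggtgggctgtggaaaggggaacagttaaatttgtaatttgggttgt
Runx1 proximal start: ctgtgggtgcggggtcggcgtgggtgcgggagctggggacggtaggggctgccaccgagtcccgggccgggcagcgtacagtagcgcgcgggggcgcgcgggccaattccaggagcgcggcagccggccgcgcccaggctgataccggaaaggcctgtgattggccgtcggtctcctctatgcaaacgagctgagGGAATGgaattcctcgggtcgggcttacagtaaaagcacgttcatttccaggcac
Twist1: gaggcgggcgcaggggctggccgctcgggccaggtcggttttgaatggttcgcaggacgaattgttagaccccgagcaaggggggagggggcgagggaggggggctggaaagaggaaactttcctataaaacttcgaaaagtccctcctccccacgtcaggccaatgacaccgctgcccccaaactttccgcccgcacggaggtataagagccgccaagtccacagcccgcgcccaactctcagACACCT
Tcf21: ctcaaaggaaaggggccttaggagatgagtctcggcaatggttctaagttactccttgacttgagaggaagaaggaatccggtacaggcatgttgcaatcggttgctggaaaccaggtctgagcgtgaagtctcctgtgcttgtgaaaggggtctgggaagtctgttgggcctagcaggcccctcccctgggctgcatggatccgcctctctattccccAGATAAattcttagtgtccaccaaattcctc

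Motifs were searched on both strands of the 300 bp, and a base can count for more than 1 motif. The MEF2 motif was in 0 of the 11 promoters (3.19% of all 32851) and the CArG box in 0 (1.63%), both searched by name. The AP-1 site TGANTCA was in 1 (7.81% of all), the Zeb2 start 7.2 kb into the gene, which held 2 of them, 189 and 132 bases before the start. The E-box CANNTG was in 2, Snai1 and the distal Runx1 promoter (72.3% of all). Both had an E-box in the form that SNAI and ZEB proteins bind, CAGGTG, which 20.2% of all promoters hold. The TEAD word GGAATG was in 3 (14.7%), at Prrx1, the proximal Runx1 start and the inner Zeb2 start. The other words were each in 1 promoter. The RUNX word TGTGGT was at the distal Runx1 start, after the bases shown (16.8% of all promoters). The GATA word AGATAA was at Tcf21 (11.2%). The T-box word AGGTGT, which shares letters with the SNAI and ZEB form, was at Twist1 (13.7%). A match is a run of letters, not evidence of binding.

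MEF2C peaks were spread unevenly over the 10 windows. Of the 162 regions, 16 (9.88%) were held by all 8 libraries, beside 5.58% of all regions, and 75 (46.3%) by 1 library, beside 56.4%. Of those 75, 42 were held by siJunb replicate 2, the longest list. The 16 lay at Zeb2 (5), Tead1 (4), Runx1 (3), Prrx1 (2), Twist2 (1) and Snai2 (1). Twist1, Snai1, Zeb1 and Tcf21 had none. With the body plus 5 kb counted, 7 of the 10 genes held a MEF2C peak in all 8 libraries (16.1% of protein-coding genes), the exceptions being Twist1, Snai1 and Tcf21. That share is not matched for gene length, and a longer body has more room for a peak. Of the 7, Zeb1, Zeb2, Runx1 and Tead1 span 134 to 227 kb and Snai2 3.54 kb. The exceptions span 2.16 to 4.62 kb.

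**Figure D1:**
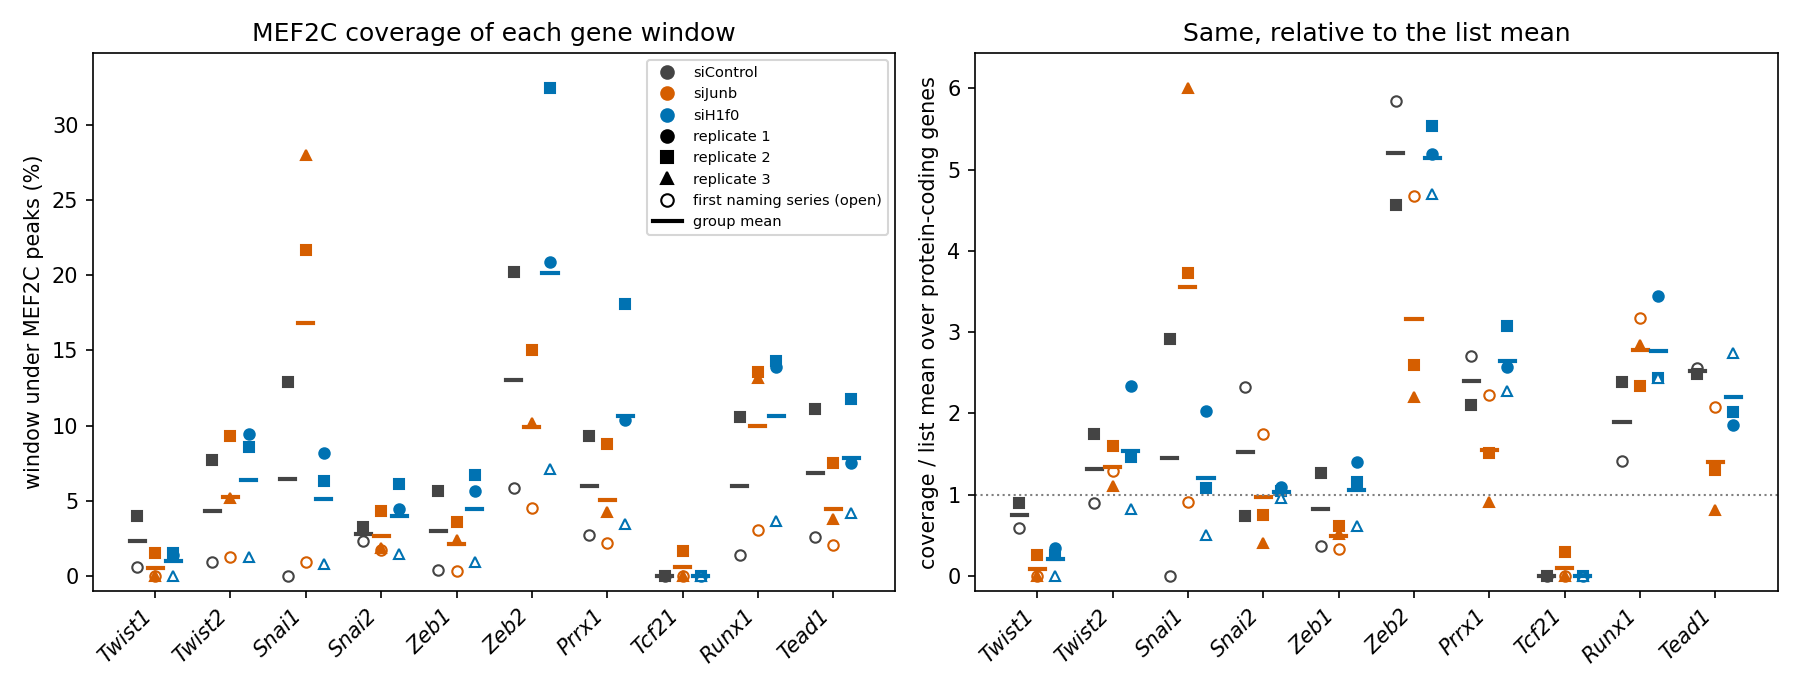
Percent of each window (gene body plus 50 kb on either side) under MEF2C peaks, left, and the same divided by the mean over protein-coding windows of that list, right, with 1 point per library, colours for groups, open points for the first naming series and bars for group means. Zeb2 and Runx1 lie above the dotted line of 1 in all 8 libraries, Twist1 and Tcf21 below it in all 8, and within most genes the open points are lowest on the left.

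Zeb2, a repressor that also acts in neural crest and nervous system, was the most covered window by the mean over the 8 libraries, although Snai1 was above it in siJunb replicates 2 and 3 and Runx1 in siJunb replicate 3. MEF2C peaks took 5.84% and 20.2% of it in siControl replicates 1 and 2, 4.54%, 15.0% and 10.2% in siJunb replicates 1 to 3, and 20.9%, 32.5% and 7.10% in siH1f0 replicates 1 to 3. These were 2.20 to 5.85 times the list means, above the mean in 8 of 8 libraries, as was 1 other member, Runx1, and 14.2% of protein-coding genes. The 3 sets overlapped. The 5 regions held throughout were at chr2:44988740-44992719, 6.61 kb inside the lower gene end, chr2:45014973-45021452, chr2:45091829-45096222, chr2:45097006-45120181 across the upper end, where transcription starts, and chr2:45135683-45139198, whose maximum lay 20.2 kb beyond that end. The region at chr2:45091829-45096222 had the steadiest rank of the 5: its strongest peak sat at the 84.7th to 89.4th percentile of column 5, the maximum signal, in every list. Its maxima in the 8 lists fell within 437 bp.

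The promoter end of Zeb2 differed inside a region that all libraries shared. The 23176 bp region at chr2:45097006-45120181 was a merger, and the lists placed peaks in different parts of it. At the outermost start, siControl replicates 1 and 2 and siH1f0 replicates 1 and 2 covered all 300 bp, and siJunb replicates 1 to 3 and siH1f0 replicate 3 covered 0 bp. This promoter was thus held by both siControl and by no siJunb library, the one such case among the 11 (0.654% of all promoters). The siControl replicate 1 peak there was weak, at the 19.7th percentile, and that of replicate 2 stood at the 52.5th. At the starts 4.2 kb into the gene, whose 2 windows overlap each other and lie over the antisense RNA gene Zeb2os, siH1f0 replicates 1 to 3 had peaks and siControl replicates 1 and 2 had none, as for 0.399% of all promoters. siJunb replicate 3 covered the edge of these windows. Peaks here may belong to Zeb2 or Zeb2os, which cannot be told apart. In siH1f0 replicates 1 and 2, peaks of 13.1 and 14.7 kb ran over all 4 starts. The widest peak in the region was 1.06 kb in siH1f0 replicate 3 and 3.94 kb among siJunb libraries. In siControl replicates 1 and 2 it was 0.918 and 10.3 kb. At the start 7.2 kb into the gene, which holds both AP-1 words, siControl replicate 2 and siH1f0 replicates 1 and 2 covered all 300 bp and the other 5 libraries none. When each list was cut to its 11731 highest peaks, neither promoter pattern remained. Without siControl replicate 1, 6 member promoters were held by siControl and by no siJunb library (6.18% of all promoters).

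Zeb1, the close relative of Zeb2, was less covered and had no region in all 8 libraries. Its coverage was 0.365% and 5.65% under siControl, 0.316%, 3.56% and 2.39% under siJunb, and 5.65%, 6.73% and 0.931% under siH1f0 (replicates in order). It passed the list mean in 3 of 8 libraries. Its strongest peaks ranged from the 19.7th to the 82.4th percentile. A region at chr18:5700049-5702781, inside the body, was held by both siControl and by no siJunb library, and one at chr18:5818691-5821234, 43.2 kb beyond the upper end, by all siH1f0 and by no siJunb library.

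**Figure D2:**
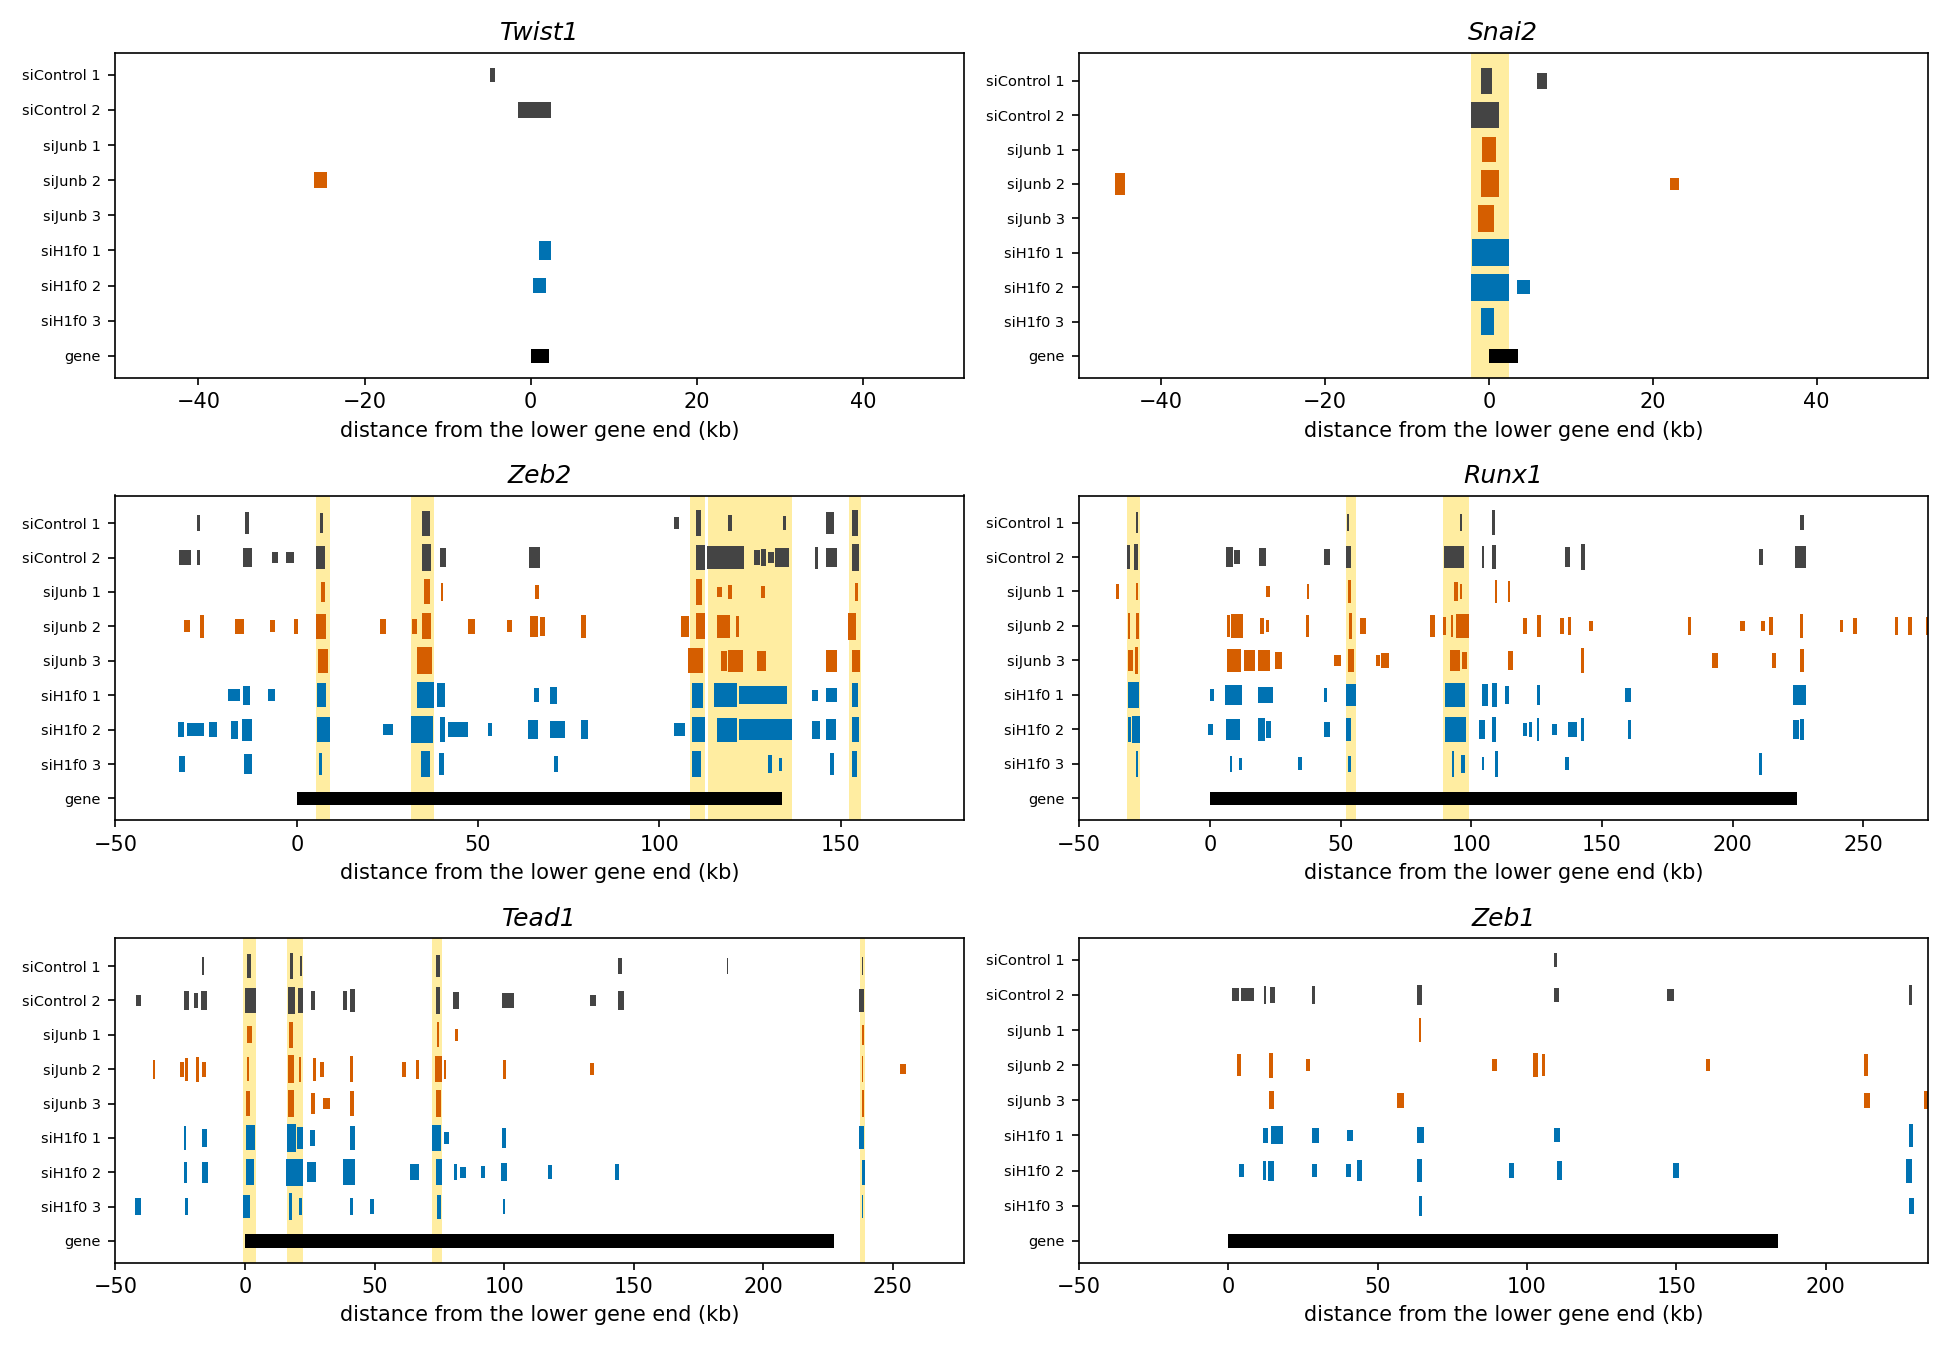
MEF2C peaks by library in 6 windows, against distance from the lower gene end in kb, with taller bars for a higher within-list percentile, the gene in black and regions held by all 8 libraries shaded. Snai2 has 1 shaded region at its lower end, Zeb2 has 5, Runx1 3 and Tead1 4, and Twist1 and Zeb1 have none.

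The SNAI pair were unlike each other. Snai2, which codes for the repressor also called Slug, had few peaks but a strong one: chr16:14703653-14708345, across the lower gene end, was held in all 8 libraries. It was the strongest MEF2C peak of the window in each, at the 90.6th and 95.6th percentile under siControl, the 90.3rd, 96.6th and 96.8th under siJunb, and the 95.6th, 97.9th and 96.6th under siH1f0. The 8 maxima fell within 169 bp, at a median of 252 bp before the lower end. Peak coverage of the window, by contrast, passed the list mean in 4 of 8 libraries (1.44% to 6.11%).

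Snai1, an early repressor of Cdh1, showed the widest spread. Coverage was 0% and 12.9% under siControl, 0.887%, 21.7% and 28.0% under siJunb, and 8.18%, 6.34% and 0.763% under siH1f0. siJunb replicates 2 and 3 were the highest and siJunb replicate 1 was low, so the groups overlapped. The 2 high libraries had 15 and 13 peaks in this window, and the 7 in siControl replicate 2 were the next most. The 22 regions here were the densest of any member, at 21.0 per 100 kb against 8.53 over all 10 windows. Of the 22, 13 were held by 1 library, 8 of these by siJunb replicate 2, the longest list. Several of the 22 lay over the neighbouring genes Spata2 and Rnf114 and the long noncoding genes Gm11476 and Gm31619. The region most widely held at the gene itself was chr2:167538486-167540485, inside the body, in 5 libraries (siControl replicate 2, siJunb replicates 2 and 3, siH1f0 replicates 1 and 2). The Snai1 promoter lay under a peak in siH1f0 replicate 3 alone.

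The basic helix-loop-helix genes ran from almost none to moderate. Twist1 coverage was 0.589% and 3.98% under siControl, 0%, 1.50% and 0% under siJunb, and 1.40%, 1.50% and 0% under siH1f0. No Twist1 peak passed the 51.4th percentile, and no library passed its list mean. Peaks over the gene (chr12:33956113-33960176) came from siControl replicate 2 and siH1f0 replicates 1 and 2. siControl replicate 1 had a weak peak at chr12:33952735-33953336, 4.33 kb before the gene, and siJunb replicate 2 one 24.5 kb before it. With the body plus 5 kb counted, both siControl and no siJunb library held Twist1, the one member of which this was true (1.15% of protein-coding genes). With the lists cut to equal length this did not hold.

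Twist2 was covered in every library. Values were 0.889% and 7.72% under siControl, 1.25%, 9.32% and 5.17% under siJunb, and 9.43%, 8.54% and 1.25% under siH1f0, above the list mean in 6 of 8. One region, chr1:91815207-91818139, was held in all 8 with maxima within 154 bp of each other, 15.3 kb into the gene from its start, and a second, chr1:91821662-91828392, in 7. Both lie over the noncoding gene Gm46117.

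Tcf21, a factor of epicardium and cardiac fibroblasts, had 1 MEF2C peak in all, in siJunb replicate 2 (1.67% of the window, 48.9th percentile), 35.4 kb before the lower end. The other 7 libraries had none. No MEF2C peak touched its promoter.

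Prrx1, a homeobox gene of limb and fibroblast mesenchyme, had coverage of 2.70% and 9.31% under siControl, 2.16%, 8.77% and 4.25% under siJunb, and 10.4%, 18.1% and 3.42% under siH1f0. It was above the list mean in 7 of 8 libraries. Regions held by all 8 were chr1:163279584-163293454 inside the gene, where siH1f0 replicate 2 had a peak of 10.2 kb, and chr1:163358626-163363318 beyond the upper end. The first overlaps the noncoding genes LOC108167740 and Gm20471. The Prrx1 promoter was under a peak in siControl replicate 2 and siH1f0 replicates 1 and 2. A region at chr1:163364498-163368072, which crosses the edge of the window, was held by both siControl and by no siJunb library, but its siControl peaks lie outside the window, and the siH1f0 replicate 2 peak alone reaches into it.

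Runx1, a runt-domain factor best known from blood, had the longest row of regions, 40. Coverage was 1.41% and 10.6% under siControl, 3.08%, 13.6% and 13.2% under siJunb, and 13.9%, 14.3% and 3.67% under siH1f0. All 8 were above the list mean, by 1.41 to 3.45 times. Its 3 regions in all libraries were chr16:92569889-92574818, with maxima within 110 bp at 27.9 kb before the lower end, chr16:92653408-92657523 in the body, and chr16:92690811-92700536 over the proximal promoter. The proximal promoter itself was touched in 7 of 8 libraries, the most among the 11 member promoters read, and missed in siH1f0 replicate 3. siJunb replicate 3 covered 77 bp of it and the other 6 all 300 bp. Snai2, Zeb1 and Tead1 had no promoter entry and are not in this ranking. Of all promoters, 2.69% were touched in all 8, a stricter count, and the share touched in 7 is not given here. The distal promoter was covered in siControl replicate 2 and siH1f0 replicates 1 and 2. A region at chr16:92704701-92707330 was held by all siH1f0 and by no siJunb library.

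Tead1, the DNA-binding partner of YAP and TAZ, had the highest ranked peaks of the 10 genes by column 5, with a median percentile of 98.3 for its strongest peak. By column 4, the summed signal, its median was 94.2, below 97.5 at Zeb2, 96.4 at Runx1 and 95.5 at Snai2. In chr7:112695377-112701889, 17.6 kb inside the lower end, the strongest peak stood at the 95.5th and 99.4th percentile under siControl, the 90.3rd, 99.5th and 98.0th under siJunb, and the 98.7th, 99.2nd and 97.5th under siH1f0. The 8 maxima fell within 167 bp. The other 3 regions in all libraries were chr7:112678460-112683453 across the lower end, chr7:112751617-112755357 in the body and chr7:112916799-112918837, 10.0 kb beyond the upper end. Coverage was 2.55% and 11.1% under siControl, 2.02%, 7.53% and 3.76% under siJunb, and 7.53%, 11.8% and 4.15% under siH1f0. A region at chr7:112822314-112825771 was held by both siControl and by no siJunb library.

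**Figure D3:**
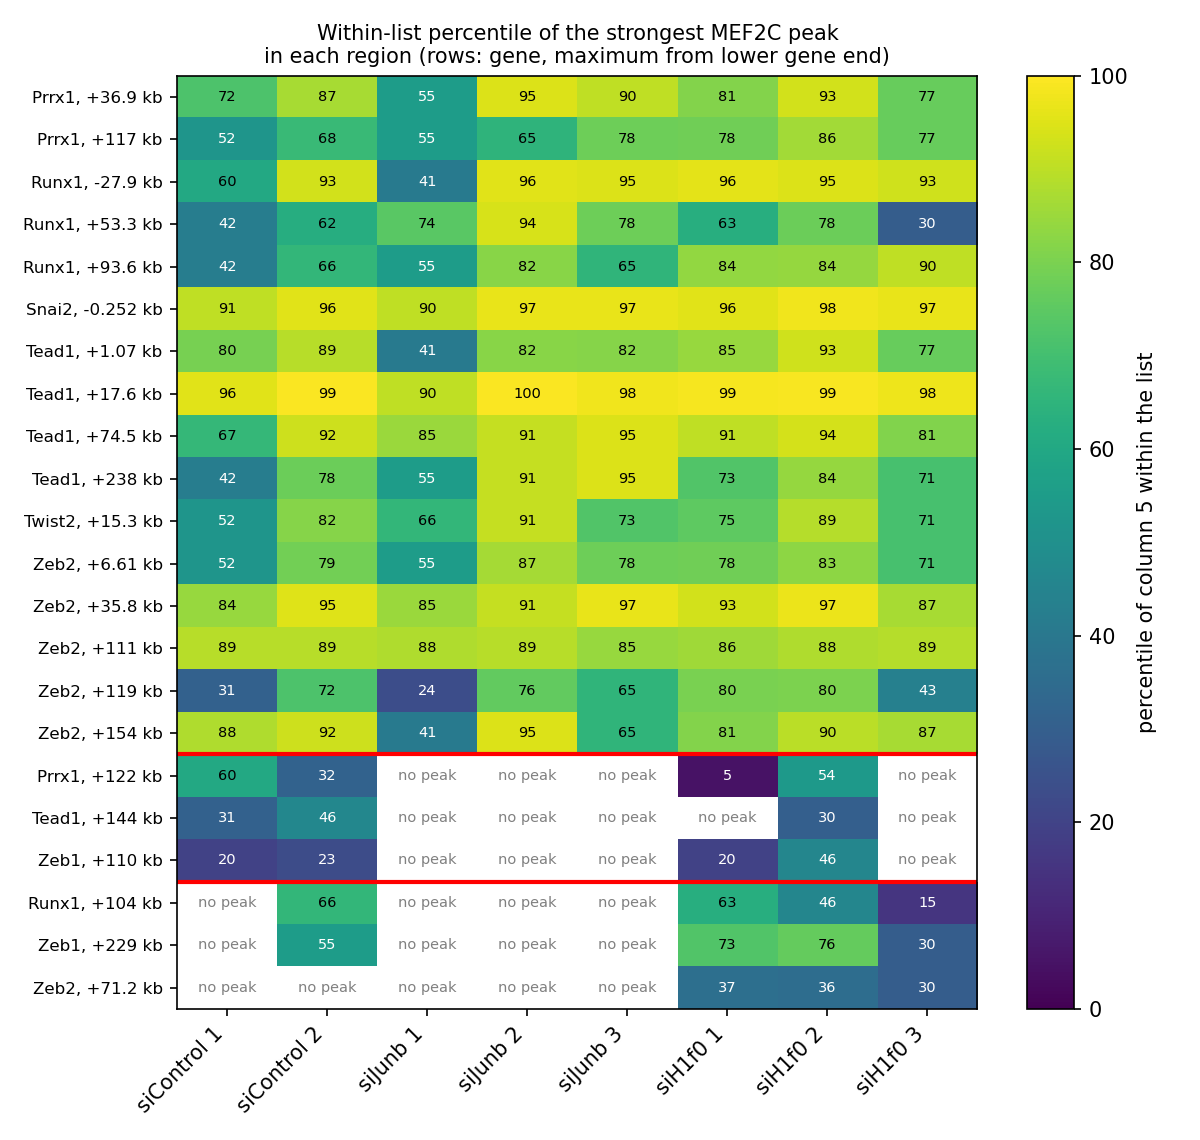
Within-list percentile of the strongest MEF2C peak in 22 regions of the windows, by library, each row named by its gene and the distance of its maximum from the lower gene end in kb. Above the first red line are the 16 regions of all 8 libraries, between the lines the 3 of both siControl and no siJunb, and below them the 3 of all siH1f0 and no siJunb, whose percentiles stay at or below 76.2.

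Over the windows, siJunb and siControl could not be separated for any of the 10 genes. Mean differences (siJunb minus siControl) ran from -3.10 percentage points at Zeb2 (9.94 ± 5.26, SD, n = 3, against 13.0 ± 10.2, n = 2) to 10.4 at Snai1 (16.8 ± 14.2 against 6.45 ± 9.13). The median was -0.537 over members and 0.0318 over all protein-coding genes. Every siJunb library was below every siControl library at 0 of 10 members, beside 2.62% of all genes, and above at 0, beside 1.59%. Exact two-sided permutation p-values were 0.3 to 1 (3 against 2, smallest possible 0.1), so 0 could fall under 0.05, and all Benjamini-Hochberg adjusted values were 1. Within both naming series, however, Twist1, Zeb1, Zeb2, Prrx1 and Tead1 were lower under siJunb than siControl (5 of 10, beside 15.0% of all genes), and Snai1 and Runx1 were higher (2 of 10, beside 12.6%). The first series has 1 library a group and the second 1 siControl library, so these directions have no replicate check, and windows without peaks cannot be lower.

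Regions gave small counts in the same comparison. Held by both siControl and no siJunb library were 3 of 162 (1.85%, beside 1.98% of all regions), at Zeb1, Prrx1 and Tead1, and the reverse was true of 0 (0.256% of all). At Zeb1 and Tead1 the siControl peaks lie in the window, and at Prrx1 they lie outside it. In the 3, siControl peaks stood at the 19.7th to 60.2nd percentile. The share among members was close to that of all regions. Without 1 library in turn the 3 became 4 to 16, the most without siControl replicate 1, and with lists cut to equal length 0. Fewer libraries make the pattern easier to meet at any region. The shares of all regions at these settings are not given here, so these counts are not a result about the members.

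Under siH1f0 the differences from siControl ran from -1.36 points at Snai1 to 7.15 at Zeb2 (20.2 ± 12.7, n = 3, against 13.0 ± 10.2, n = 2), with a median of 1.31 over members and 0.386 over all genes. 0 of 10 members were lower in every siH1f0 library (0.457% of all genes) and 0 higher (2.04%). Exact permutation p-values were 0.4 to 1, two-sided, with adjusted values of 1 and a smallest possible p of 0.1. Within both series, Twist2, Zeb2, Prrx1 and Runx1 were higher (4 of 10, beside 16.4%) and Twist1 was lower (1 of 10, beside 4.87%). Of the regions, 1 was held by all siH1f0 and no siControl library (0.617%, beside 0.448% of all), chr2:45053365-45057482 inside Zeb2, at the 29.5th to 36.7th percentile, and 0 by both siControl and no siH1f0 library (0.249% of all). siControl libraries are the same as in the siJunb comparison, so the 2 results are not independent.

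Between the knockdowns, which share no library, siJunb minus siH1f0 ran from -10.3 points at Zeb2 (9.94 ± 5.26 against 20.2 ± 12.7, n = 3 each) to 11.8 at Snai1 (16.8 ± 14.2 against 5.09 ± 3.86). 8 of the 10 differences were below 0, beside 45.9% of all genes. Windows without peaks under both knockdowns differ by 0 and cannot fall below it. 0 of 10 had groups apart in the lower direction (2.82% of all) or the higher (0.918%). Exact permutation p-values were 0.3 to 1, two-sided, for 3 against 3, where 0.1 is the smallest, and adjusted values were 1. Within both series Zeb1, Zeb2, Prrx1 and Runx1 were lower under siJunb (4 of 10, beside 13.0%) and Snai1 was higher (1 of 10, beside 4.81%). Regions held by all siH1f0 and no siJunb library numbered 3 (1.41% of all regions), at Zeb1, Zeb2 and Runx1, and the reverse 0 (0.132%). Divided by the list mean, a scaling tried after the data were seen, Zeb1, Zeb2 and Prrx1 lay lower in every siJunb than in every siH1f0 library, as did 8.77% of all genes. The margins were narrow. The highest siJunb and lowest siH1f0 ratios were 0.613 and 0.616 at Zeb1, 4.68 and 4.7 at Zeb2, and 2.23 and 2.27 at Prrx1.

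**Figure D4:**
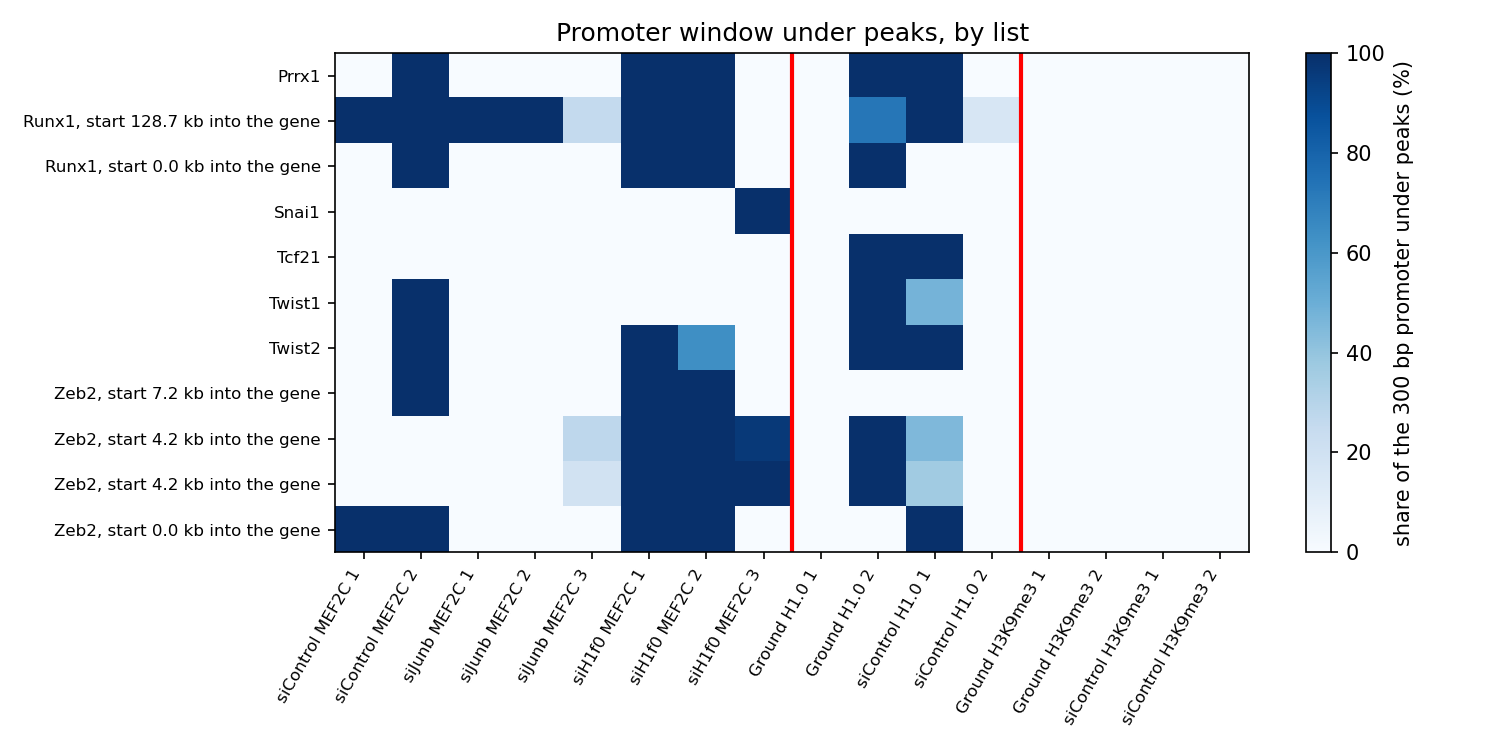
Percent of each 300 bp RefSeq promoter of the members under peaks, by list, with red lines between MEF2C, H1.0 and H3K9me3 lists and several starts of a gene named by their distance into it. The outermost Zeb2 start is blank in the 3 siJunb lists, the proximal Runx1 start is filled in 7 of 8 MEF2C lists, and every H3K9me3 cell is blank.

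H3K9me3, read in fibroblasts before and after induction, passed the list mean in every list at Zeb1 and Snai2 alone among the members. Zeb1 had 5.95% and 17.6% of its window under H3K9me3 peaks in the ground state and 5.65% and 12.8% at day 1, above the list mean in 4 of 4 lists. Snai2 had 2.33% and 17.5%, then 5.50% and 16%, also above in 4 of 4. This held for 14.7% of protein-coding genes and for no other member, and the count among the members is near that share. Twist1 was nearly bare, with 0% and 0.626% in the ground state and 0% and 0.0401% at day 1. Zeb1 held 6 of the 11 H3K9me3 regions shared by all 4 lists within the windows. The strongest Zeb1 one, chr18:5656804-5662116, stood at the 95.1st to 97.3rd percentile and began 75 bp from the MEF2C region chr18:5654567-5656729, held by 5 libraries. At Snai2 the shared region was chr16:14681768-14686369, 19.5 kb below the lower gene end and 17284 bp from the MEF2C region at its end.

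Few MEF2C regions of these windows met H3K9me3. Of the 162, 1.23% to 8.64% were touched in the 4 H3K9me3 lists, beside 4.55% to 11.8% of all MEF2C regions. H3K9me3 touched 0 of the 16 regions held by all 8 MEF2C libraries in each of the 4 lists, where 4.62% to 13.4% of all such regions were touched. It also touched 0 of the 11 promoters, where 1.55% to 6.92% of all promoters were touched. With so few regions, 0 is not far from those shares. Of the 11 H3K9me3 regions in all 4 lists, 3 were overlapped by MEF2C peaks, a count not set here beside all such regions. One lay in the Runx1 body (chr16:92615566-92620895), at the 92.2nd to 97.7th percentile, with peaks of 5 MEF2C libraries. The others were 6.5 kb below the lower end of Zeb2, the end away from its starts (chr2:44972148-44977008), with 3 MEF2C libraries, and inside Zeb1 (chr18:5673480-5680007), with 1.

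**Figure D5:**
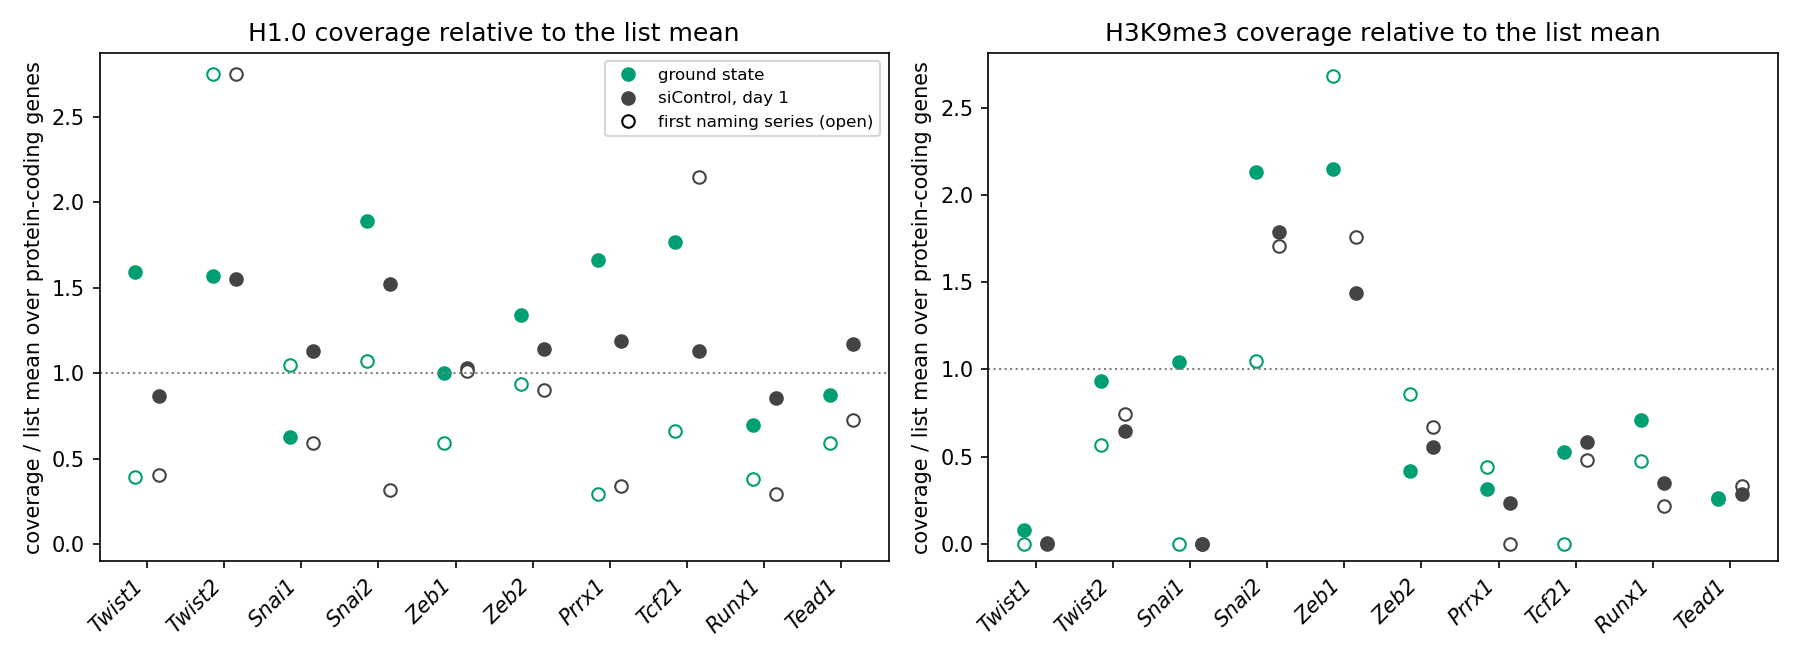
H1.0 (left) and H3K9me3 (right) coverage of each window divided by the mean over protein-coding windows of the same list, 1 point per library, with the ground state and day 1 siControl in colours and the first naming series as open points. Zeb1 and Snai2 lie above the dotted line of 1 in all 4 H3K9me3 lists, and Twist2 in all 4 H1.0 lists.

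Between day 1 and the ground state no member separated in H3K9me3. Differences ran from -4.28 points at Snai1 (0 ± 0, n = 2, against 4.28 ± 6.06, n = 2) to 1.22 at Tcf21. 0 of 10 were lower in both day 1 libraries (0.708% of all genes) and 0 higher (1.74%). Exact permutation p-values were 0.667 to 1, two-sided, in a design whose smallest is 0.33, with adjusted values of 1. Within both series Zeb1, Prrx1 and Runx1 were lower at day 1 (3 of 10, beside 10.2%), and Zeb2, Tcf21 and Tead1 were higher (3 of 10, beside 25.2%).

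H1.0 lists differed far more between series than between states. At Zeb2, for example, H1.0 peaks covered 4.99% and 54.0% of the window in the ground state and 46.4% and 1.42% at day 1. Relative to the list mean, Twist2 was above in 4 of 4 lists, at 1.55 to 2.75 times, the one member of which this was true (15.0% of all genes). Its window held 4 of the 14 H1.0 regions shared by all 4 lists, and the Zeb1 window also held 4. One of those at Twist2, chr1:91798780-91812987, lay across the gene's lower end. A second, chr1:91813708-91826866, was overlapped by peaks of all 8 MEF2C libraries. Runx1 was below the mean in all 4, and the share of all genes below it in all 4 is not given here. The 16 regions held by all MEF2C libraries were touched by H1.0 in 2 and 14 cases in the ground state and 16 and 3 at day 1, beside 35.1%, 93.5%, 97.7% and 19.5% of all such regions. No member was lower at day 1 in both libraries (0 of 10, beside 0.0411% of all genes) or higher (0 of 10, beside 0.0457%), with exact permutation p-values of 0.667 to 1, two-sided, and adjusted values of 1. Within both series 6 were lower at day 1, beside 34.5% of all genes, and 0 higher, beside 2.88%.

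Other genes of the programme were read over the body plus 5 kb, again without matching for gene length. Of 24 relatives and partners, 13 held MEF2C in all 8 libraries (16.1% of all genes). Among them were the inhibitors Id1, Id2 and Id3, the TWIST partners Tcf3, Tcf4 and Tcf12, and Runx2 and Snai3. Their relatives did not all do so: Id4 and Msc held it in 0 libraries, and Hand2, Runx3 and Tcf15 in 1 each. Of 24 other mesenchymal factors 5 held it in all 8 (Creb3l1, Egr1, Ets1, Mkx and Smad3). Of 20 targets and epithelial opponents 4 did (Crb3, Mir199a-2, Mir214 and Vim). Grhl2, an epithelial factor that opposes Zeb1, was held by both siControl and no siJunb library (1.15% of all genes) and by all siH1f0. Klf4 and Grhl2 were held by all siH1f0 and no siJunb library (0.973% of all genes). The E-cadherin gene Cdh1, a target of SNAI and ZEB, was held by all siJunb and no siH1f0 library (0.352%), and by 1 siControl library. Peak lists hold no RNA, so they do not check the fibroblast label.

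The genes whose coverage across the 8 MEF2C lists was most like Twist1 were Uimc1, Musk and Syt3, at mean absolute differences of 0.169, 0.187 and 0.225 percentage points. For Zeb2 they were Nexn, Gm13271 and Gm13283, at 1.36, 1.44 and 1.61 points. The search ran over protein-coding genes on other chromosomes or over 1 Mb away.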

How the data were processed

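CUT&RUN was measured in 24 labelled samples, and 16 of them entered with 1 peak list each. Bowtie2, SEACR and the build mm10 were used, per the submitters' processing notes. Versions, use of IgG and any scaling were not given in the sources used here. The lists carry SEACR's relaxed setting in their names. The authors' deposited values are signal: whole-number coverage summed over a peak (column 4) and its maximum (column 5). These were used only to rank peaks within a list, as percentiles with tied peaks sharing a mean rank. The labels give 30 M reads per sample, aligned depth is unknown, and list length and the spread between libraries set the precision.

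Only the autosomes and chromosomes X and Y entered. A gene's value is the percentage of its body plus 50 kb under peaks, with gene positions as in RefSeq for GRCm38.p6 (mm10), without exons. A library held a region or promoter with at least 1 bp of a peak. A window was called lower or higher when all libraries of a group lay below or above all of the other, and each comparison was tested across all 21887 protein-coding genes by exact two-sided permutation with Benjamini-Hochberg adjustment. What was repeated between replicates is not stated in the labels, and any p-value here reflects only how far these samples differ, which may be technical. Same-numbered siJunb and siH1f0 libraries did not deviate together in every pair (r = 0.0127, 0.281 and -0.0359 across genes). Pairing of the siControl, H1.0 and H3K9me3 libraries was not checked. The main tests are unpaired. Alternatives were other flanks, equal list lengths, the upper 50% of peaks, peak numbers, merging within 500 bp, each library left out, single naming series and, chosen after the data were seen, division by the list mean and the promoter and body variants. Calling was tested on simulated data without differences in list size and with less spread between libraries than here. That checks the procedure and not its performance on these lists. Python 3.11.15, numpy 2.4.6 and pandas 2.3.3 were used.

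All 10 members are named. Other genes are named where a peak lay in the body plus 5 kb in all 8 MEF2C libraries, or in all libraries of a group and none of another, at most 8 per list in alphabetical order, and as the 3 most like Twist1 and the most covered member. Relatives and partners with a peak in 0 or 1 library are named besides. The members and lists were chosen with earlier results of these data known. Marker lists for fibroblasts, epithelium, endothelium, blood and cardiomyocytes held a MEF2C peak in all 8 libraries at 3 of 9, 1 of 5, 1 of 4, 1 of 3 and 1 of 5 genes.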

Additional observations from a re-analysis of the deposited data

How the results depend on the processing

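The groups overlapped at all 10 members in each of the 5 window comparisons as reported, and some members separated under other settings. For siJunb against siControl, members lower numbered 1 with 100 kb flanks (Twist1; 2.84% of all genes), 2 with equal list lengths (Snai2, Prrx1; 5.16%), 2 after division by the list mean (Twist1, Tead1; 13.1%), 6 in the first naming series (34.9%) and 5 in the second (28.9%), and members higher 3 (28.8%) and 2 (26.4%) in these series. For siH1f0 against siControl, 1 was higher with equal list lengths (Zeb1; 4.65%), 1 lower (Twist1; 6.78%) and 1 higher (Runx1; 6.0%) after division by the list mean, 2 lower (20.4%) and 7 higher (46.2%) in the first series, and 2 (19.1%) and 5 (24.5%) in the second. For siJunb against siH1f0, 1 was lower (Tead1; 5.11%) and 1 higher (Snai1; 1.61%) with equal list lengths, 3 lower after division by the list mean (8.77%), 5 lower (47.0%) and 3 higher (18.1%) in the first series, and 5 (19.9%) and 1 (17.5%) in the second. For H1.0, 1 was higher with equal covered length (11%) and 1 after division by the list mean (8.82%), Zeb1 in both, 10 were lower in the first series (82.8%), and 6 lower (45.6%) and 4 higher (53.1%) in the second. For H3K9me3, 1 was lower (Zeb1; 4.29%) and 1 higher (Zeb2; 4.46%) with equal covered length, 3 lower (9.84%) and 1 higher (6.76%) after division by the list mean, 3 lower (17.7%) and 5 higher (47.4%) in the first series, and 7 (39.8%) and 3 (37.7%) in the second. A single series has fewer libraries, which makes separation easier. For the rest the cause was not tested.

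Pairing libraries by replicate number, as a replicate block, gave 5 members lower (16.9% of all genes) and 3 higher (18.9%) for siJunb against siControl. It gave 7 higher (46.9%) for siH1f0 against siControl and 1 lower (8.3%) for siJunb against siH1f0. For H3K9me3 it gave 3 lower (10.2%) and 3 higher (25.2%), and for H1.0 no change of call. Replicate numbers follow the naming series for H3K9me3, so those counts repeat the ones within both series. They cross the series for H1.0 and in part for siH1f0. The check of deviations covered siJunb and siH1f0 libraries alone and did not bear out pairing there. siJunb replicate 1 deviated most like siH1f0 replicate 3 (r = 0.154), and not every library went best with its own number.

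With each library left out, members lower and higher ran from 0 to 5 and 0 to 3 (siJunb against siControl), 0 to 2 and 0 to 7 (siH1f0 against siControl), 0 to 5 and 0 to 1 (siJunb against siH1f0), 0 to 10 and 0 to 4 (H1.0), and 0 to 7 and 0 to 5 (H3K9me3). Where these counts were highest, the shares of all genes were 28.8% and 24.4%, 18.8% and 41.1%, 19.8% and 17.2%, 82.6% and 53.1%, and 39.5% and 43.8% in the same order. Regions lost under siJunb ran from 4 to 16 and gained 0 to 6, lost under siH1f0 0 to 4 and gained 1 to 10, held by all siH1f0 and no siJunb 3 to 14, and the reverse 0 to 6. Promoters lost under siJunb ran from 1 to 6. Leaving a library out makes each of these patterns easier to meet, and the shares of all regions at these settings are not given here. Regions lost under siJunb were 0 when a library had to cover 50% of a region and 0 with equal list lengths, and those of all siH1f0 and no siJunb were 1 with equal lengths. With equal list lengths, promoters lost under siJunb were 0, promoters gained under siH1f0 0, and gene bodies lost under siJunb 0. Ranked by column 4, the median percentile of the strongest peak was 72.2 at Twist2, 62.9 at Tcf21 and 94.2 at Tead1, which then no longer ranked first among the members. Short lists limit what an absent peak can show.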
